A study of Homo sapiens with 8 samples.

Results

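Alternative splicing in epithelial and mesenchymal cells is set largely by a small group of RNA-binding proteins, and the genes of 10 of them are described here in SKBR3 cells, a breast cancer line of human origin with amplified ERBB2, in control cells and after knockdown of the pioneer transcription factor FOXA1. The genes were chosen by symbol: ESRP1 and ESRP2, RBM47, RBFOX2, QKI, MBNL1, MBNL2 and MBNL3, and PTBP1 and PTBP2. Each matched 1 row, so 10 of the 30434 genes in the table are covered, and all 10 passed the filter on low counts, with mean counts per library from 312.5 to 9337. RNA was sequenced from 4 libraries of control SKBR3 cells, labelled WT, and 4 libraries of SKBR3 cells labelled FOXA1 knockdown, a stable line made by lentiviral delivery of 3 short hairpin RNAs against FOXA1. Both groups were grown in DMEM with 10% fetal bovine serum, penicillin and streptomycin. The labels name 1 stable line and do not say whether the control cells carried a vector or whether replicates were separate cultures, so p-values measure the spread between these libraries, which may be technical. RNA was taken from whole cultures, so fewer cells with a transcript and less of it per cell cannot be told apart. The comparison asks how the levels of these splicing factor genes differed once FOXA1 was lowered.

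ESRP1 and ESRP2, the epithelial splicing regulatory proteins, are made mainly in epithelial cells, where they direct the inclusion of epithelial exons in transcripts such as FGFR2, CD44, CTNND1 and ENAH. RBM47 is a further RNA-binding protein of epithelial cells. RBFOX2, QKI and the muscleblind-like proteins MBNL1, MBNL2 and MBNL3 bind short motifs beside regulated exons and include or skip them depending on the side bound, and RBFOX2 and QKI are known for exons that are used in mesenchymal cells. PTBP1, the polypyrimidine tract binding protein, mostly represses exons and keeps its paralogue PTBP2 low by causing an exon of PTBP2 transcripts to be skipped, which exposes them to decay. The data are counts per gene, so they show how much RNA of each factor was present and not which exons were used.

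Library totals ran from 19087878 to 23786684 counts. FOXA1, the targeted gene, had between 4071 and 4397 counts in the control libraries and between 83 and 92 in the knockdown libraries, or 2.06% of the control level in CPM (counts per 1000000 after TMM scaling). The epithelial markers KRT8, KRT18, KRT19, KRT7 and EPCAM and the amplified ERBB2 were detected in both groups, with summed levels between 18289.9 and 20372 CPM in control and between 11485 and 12376 CPM in knockdown. They did not move together: ERBB2 fell from 7308 to 1340.0 CPM, KRT19 from 2645 to 723 and KRT7 from 2202 to 637, while KRT8, KRT18 and EPCAM were higher. Of 7 fibroblast markers, 4 had at most 3 counts in any library or no row, and the 3 tested ones moved both ways. COL3A1 had at most 1 count in control and 90 to 104 in knockdown libraries, PDGFRB went from 0.41 to 2.83 CPM (log2 fold change 2.78, SE 0.213), and COL1A1 from 5.38 to 4.33 CPM (log2 fold change -0.31, SE 0.105). The summed level was between 5.27 and 6.98 CPM in control and between 10.8 and 11.96 CPM in knockdown, and its part in the results was not tested. The leukocyte marker PTPRC had at most 3 counts and the endothelial marker PECAM1 at most 6 in any library. The summed leukocyte level, mostly from CSF1R, was 75.8 to 82.6 CPM in control and 56.6 to 64.9 CPM in knockdown. The summed endothelial level, mostly from CDH5, was 20.8 to 22.2 CPM in control and 19.9 to 22.4 CPM in knockdown. CD68 went from 4.94 to 0.589 CPM and VWF from 5.22 to 0.845 CPM, while CDH5 was higher. Control replicate 3 differed most among the controls: its chi-square per degree of freedom against them was between 5.66 and 7.42, where the other control pairs gave 2.30 to 2.55. Among the splicing factor genes it was the lowest control for 7 of 10 and at 75.6% to 88.2% of the mean of the other controls for PTBP2, MBNL2, MBNL3 and MBNL1, so values without it are given where they bear on a result. Counts were tested with edgeR's quasi-likelihood test over 16430 genes, with Benjamini-Hochberg adjustment and a threshold of 0.05.

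Of the 10 splicing factor genes, 8 passed the threshold: RBM47, RBFOX2, QKI, PTBP1 and PTBP2 were higher in knockdown, and ESRP2, MBNL2 and MBNL3 were lower. ESRP1 and MBNL1 did not pass. The background was as high, since 77.1% of all tested genes passed, 39.4% higher and 37.7% lower, so the share of 8 in 10 is near that of any genes here, and the sizes and directions of single genes carry the description. QKI and MBNL3, 2 of the 10, passed with 2-fold or more, beside 28.3% of all tested genes. In CPM, all knockdown libraries lay on 1 side of all controls for the same 8 genes, beside 72.0% of all tested genes. The median log2 fold change was 0.19 over the 10 genes and 0.019 over all tested genes.

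**Figure D1:**
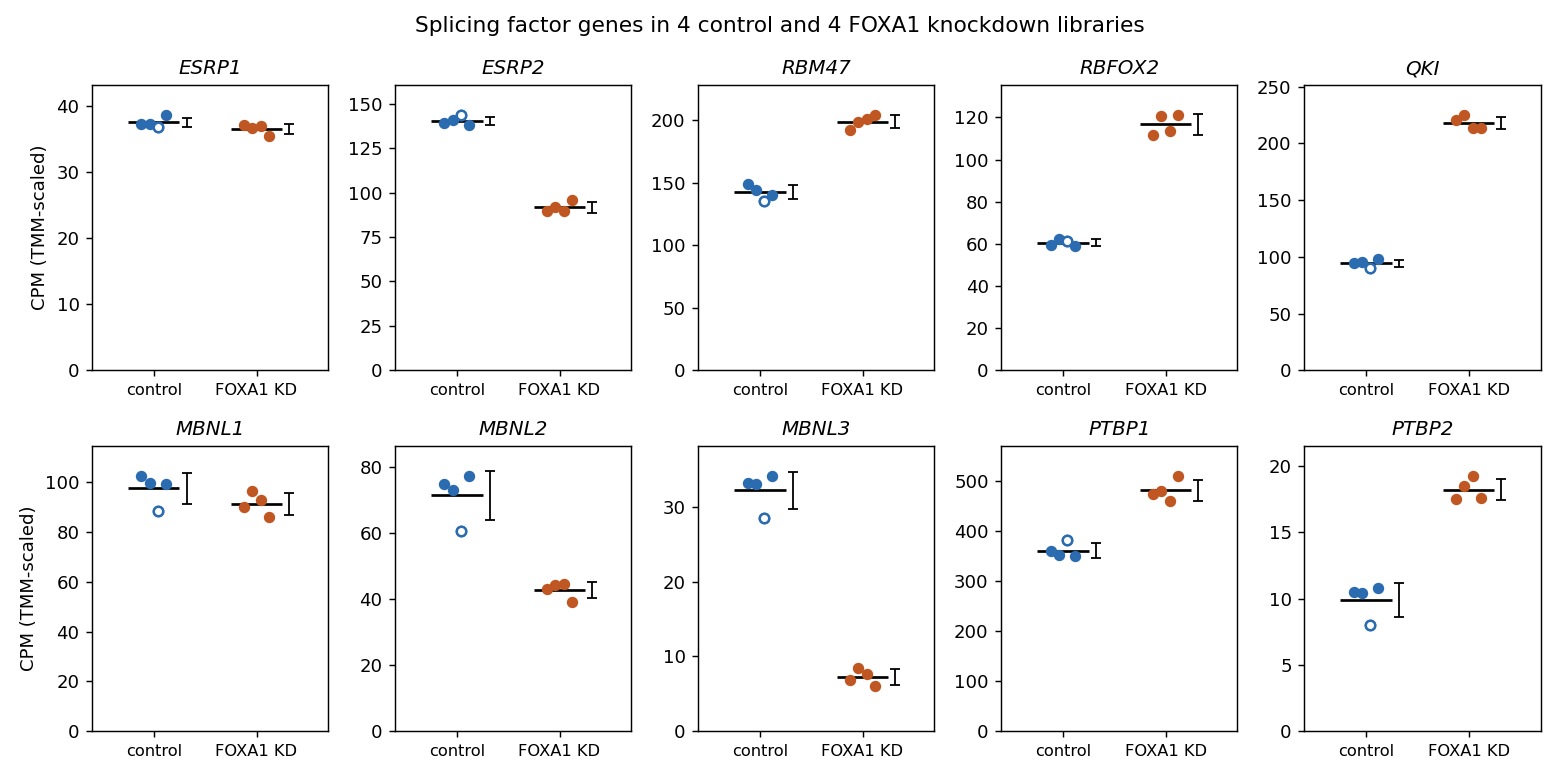
Level of each splicing factor gene (y axis, TMM-scaled CPM, starting at 0) in the 4 control libraries (blue) and the 4 FOXA1 knockdown libraries (orange), with the group mean as a line and its SD beside it; control replicate 3 is an open circle. The groups overlap for ESRP1 and MBNL1 and are separate for the other 8 genes, with the widest gap relative to level in MBNL3.

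RefSeq start-site windows (GRCh38.p14, 250 bases before to 50 after a start) were at hand for 6 of the 10 genes, MBNL1, MBNL2, MBNL3, PTBP1, PTBP2 and RBM47, in 16 windows. They were searched on both strands for the forkhead motif of the FOXA family, as TGTTTAC or TGTTTGC, 2 spellings that cannot both match at the same place. A match was found in 2 of the 16 windows, beside 7.17% of the 35116 windows of that length over all genes. The E-box CACCTG, bound by ZEB and SNAI repressors, was in 1 of the 16 (a window of RBM47), beside 20.6% of all windows. Shown are both forkhead matches, with the motif in capitals and 11 bases on each side, and the 250 bases before the outermost start of MBNL3 and before the start of PTBP2, the genes at the 2 lowest length-scaled levels, which hold neither motif and so have no capitals. The MBNL1 match, chr3:152298767-152298795, lies on the opposite strand and begins 236 bases before its start. The RBM47 match, chr4:40514647-40514675 on the minus strand, begins 83 bases before its start. The other sequences are chrX:132490036-132490285, minus strand, and chr1:96722388-96722637, plus strand. A match is only these letters in the window, and none of the counts bear on binding there.
MBNL1: atgtaccatttGTAAACAcccctttcctt
RBM47: tccctcagtggTGTTTGCtctgagggtgg
MBNL3: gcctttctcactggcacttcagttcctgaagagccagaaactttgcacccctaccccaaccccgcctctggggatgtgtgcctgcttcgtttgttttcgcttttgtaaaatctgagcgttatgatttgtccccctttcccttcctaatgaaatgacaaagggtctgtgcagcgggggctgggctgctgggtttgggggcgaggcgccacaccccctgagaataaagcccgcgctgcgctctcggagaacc
PTBP2: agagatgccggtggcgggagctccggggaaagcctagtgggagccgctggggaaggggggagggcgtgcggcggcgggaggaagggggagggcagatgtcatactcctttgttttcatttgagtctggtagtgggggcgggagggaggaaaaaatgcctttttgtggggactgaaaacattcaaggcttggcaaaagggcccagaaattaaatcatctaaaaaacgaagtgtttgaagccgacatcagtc

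The 2 epithelial paralogues ESRP1 and ESRP2 behaved differently. ESRP1 (ENSG00000104413.18, chr8:94641074-94707466, plus strand, positions here and below from GENCODE 29 on GRCh38) had 37.4, 37.4, 36.9 and 38.6 CPM in controls 1 to 4, against 37.1, 36.7, 37.0 and 35.5 CPM in knockdown libraries 1 to 4. The ranges overlapped, with 2 knockdown libraries below all controls and 2 among them. Its level went from 37.6 CPM ± 0.735 in control to 36.6 CPM ± 0.717 in knockdown (SD, n = 4 each), a fitted log2 change of -0.038 (SE 0.02; edgeR adjusted p 0.449). The 16 differences between a knockdown and a control library ran from -0.12 to 0.00805 on the log2 scale, and an exact two-sided permutation test over the 70 divisions of the libraries gave p = 0.0857. With upper-quartile or library-size scaling the sign turned, to 0.021 and 0.0455, with adjusted p of 0.681 and 0.365 by edgeR. The 50 tested genes nearest to ESRP1 had a median log2 fold change of -0.18. With that shift taken out ESRP1 was higher, at 0.14, and past the threshold (edgeR adjusted p 0.00976). The neighbours' median was entered as a fixed value, so this p-value and those of the same kind below leave out its uncertainty. Of all tested genes, 95.9% had a larger absolute log2 fold change.

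ESRP2 (ENSG00000103067.14, chr16:68229111-68238102, minus strand) had 139, 141, 144 and 138 CPM in controls 1 to 4, against 89.7, 92.3, 89.6 and 96.1 CPM in knockdown libraries 1 to 4. Every knockdown library lay below every control library. ESRP2 fell from 140.5 CPM ± 2.33 in control to 91.9 CPM ± 3.06 in knockdown (SD, n = 4 each), or 65.4% of its level in control, a fitted log2 change of -0.61 (SE 0.0266; edgeR adjusted p 7.04e-14; exact two-sided permutation p = 0.0286, the smallest that 4 against 4 can give). Its exons overlap those of NFATC3 on the opposite strand by 149 bp and those of AC020978.5, annotated as an antisense gene but on the strand of ESRP2, by 35 bp, and whether counting used strand is not stated. NFATC3 averaged 746 counts per library and AC020978.5 averaged 353, beside 2572 for ESRP2, and the part of these overlaps was not tested. The log2 ratio of ESRP1 to ESRP2 counts, which does not depend on scaling, moved from -1.90 ± 0.05 in control to -1.33 ± 0.0756 in knockdown (SD, n = 4 each), a change of 0.57 (SE 0.0453). All 4 knockdown libraries lay above all 4 controls (exact two-sided permutation p = 0.0286, and 0.0286 after adjustment over the 6 paralogue pairs compared), so the change of the 2 paralogues differed by more than the spread between libraries.

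Per kilobase of exon, the only scale on which levels of different genes are compared here, ESRP2 was the more abundant of the pair in both groups. Its share of the summed length-scaled level of ESRP1 and ESRP2 was 79.0% ± 0.576 in control and 71.7% ± 1.05 in knockdown. The sum itself was 46.3 ± 0.454 CPM per kb in control and 33.4 ± 0.616 CPM per kb in knockdown (SD, n = 4 each). Nearly all of the fall of the sum came from ESRP2, with ESRP1 at 9.71 and 9.46 CPM per kb.

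RBM47 (ENSG00000163694.15, chr4:40423267-40630875, minus strand) moved the other way from ESRP2. It had 149, 144, 136 and 141 CPM in controls 1 to 4, against 192, 199, 201 and 204 CPM in knockdown libraries 1 to 4, and all 4 knockdown libraries were above every control. The rise was from 142 CPM ± 5.57 in control to 199 CPM ± 4.90 in knockdown (SD, n = 4 each), a fitted log2 change of 0.48 (SE 0.0335; edgeR adjusted p 6.46e-12; exact two-sided permutation p = 0.0286). The 50 tested genes nearest to RBM47 on its chromosome had a median log2 fold change of 0.41. With that shift taken out, the log2 fold change of RBM47 was 0.068 and no longer past the threshold (edgeR adjusted p 0.0917).

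The 2 factors known for mesenchymal exons, RBFOX2 and QKI, were both higher in knockdown. QKI (ENSG00000112531.17, chr6:163414000-163578596, plus strand) had counts of 2055, 2094, 1890 and 2267 in controls 1 to 4, against 5188, 5482, 4200 and 4621 in knockdown libraries 1 to 4. In CPM these were 94.1, 95.1, 89.8 and 97.7 in control and 221, 225, 214 and 214 in knockdown, so that the lowest knockdown library was more than 2-fold above the highest control. QKI rose from 94.2 CPM ± 3.30 in control to 218 CPM ± 5.28 in knockdown (SD, n = 4 each), 2.32-fold, a fitted log2 change of 1.21 (SE 0.0309; edgeR adjusted p 3.45e-20; exact two-sided permutation p = 0.0286). It was the largest rise among the 10 genes, and the share of all tested genes with a larger absolute change was 24%. The nearest 50 tested genes had a median of 0.22, and QKI remained higher at 0.99 with that shift taken out.

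RBFOX2 (ENSG00000100320.23, chr22:35738736-36028425, minus strand) had 59.7, 62.5, 61.2 and 58.8 CPM in controls 1 to 4, against 112, 121, 114 and 121 CPM in knockdown libraries 1 to 4. Every knockdown library lay above every control. RBFOX2 rose from 60.5 CPM ± 1.63 in control to 117 CPM ± 4.80 in knockdown (SD, n = 4 each), 1.93-fold, a fitted log2 change of 0.95 (SE 0.0355; edgeR adjusted p 6.82e-17; exact two-sided permutation p = 0.0286). Its neighbours had a median of 0.20, and the value without that shift was 0.74. The paralogues of RBFOX2 were nearly absent: RBFOX1 had at most 4 counts in any library, and RBFOX3, best known as a neuronal marker, had 2 to 5 counts in control and 6 to 10 in knockdown libraries, below the filter.

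**Figure D2:**
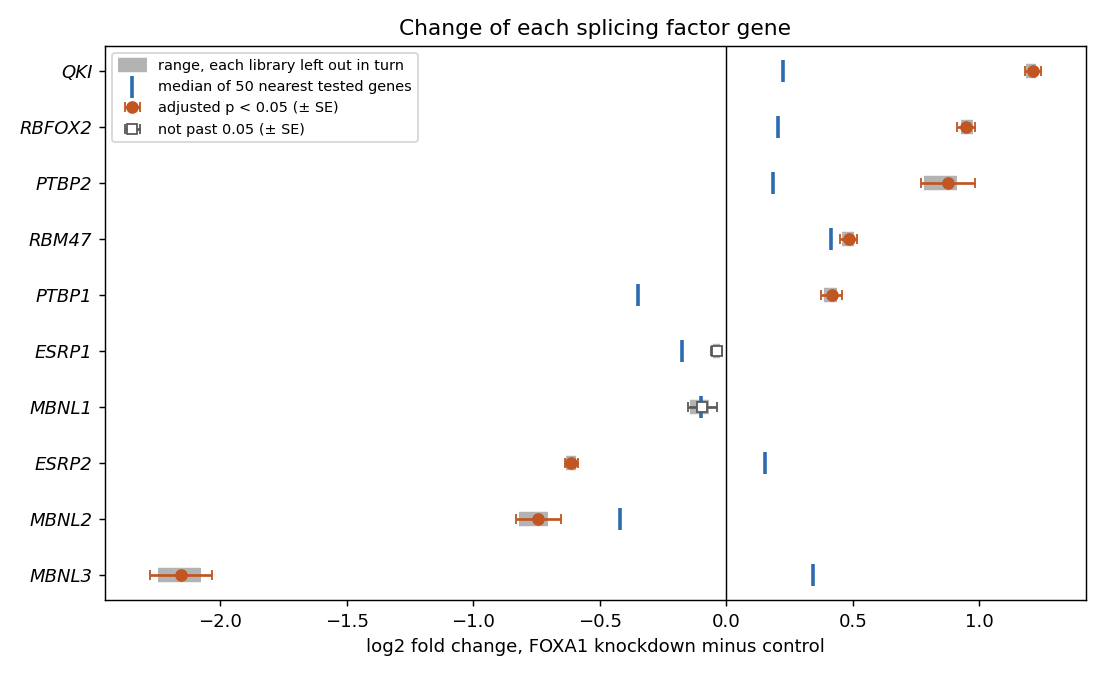
Log2 fold change of each splicing factor gene, knockdown minus control (points with SE bars; filled, adjusted p under 0.05), the range when each library is left out in turn (grey) and the median of the 50 nearest tested genes (blue ticks). QKI and MBNL3 are at the ends, at 1.21 and -2.16, RBM47 lies close to its neighbours' median, and for ESRP2, MBNL3 and PTBP1 that median has the opposite sign.

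The 3 muscleblind-like genes ranged from no call to the largest change of the 10. MBNL3 (ENSG00000076770.14, chrX:132369317-132489968, minus strand) had counts of 726, 730, 602 and 793 in controls 1 to 4, against 161, 207, 150 and 129 in knockdown libraries 1 to 4. In CPM it had 33.2, 33.1, 28.6 and 34.2 in control and 6.84, 8.48, 7.64 and 5.97 in knockdown. All 4 knockdown libraries were below the lowest control, which was replicate 3. MBNL3 fell from 32.3 CPM ± 2.51 in control to 7.23 CPM ± 1.08 in knockdown (SD, n = 4 each), 4.46-fold lower, a fitted log2 change of -2.16 (SE 0.123; edgeR adjusted p 1.11e-15; exact two-sided permutation p = 0.0286). Without control replicate 3 the value was -2.21. Its 50 nearest tested genes on the X chromosome had a median of 0.34, against the direction of MBNL3, and 13.9% of all tested genes had a larger absolute change.

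MBNL2 (ENSG00000139793.18, chr13:97221434-97394120, plus strand) had 74.96, 73.0, 60.6 and 77.2 CPM in controls 1 to 4, against 43.1, 44.3, 44.4 and 39.1 CPM in knockdown libraries 1 to 4. Control replicate 3 was the lowest control, and still above all knockdown libraries. MBNL2 fell from 71.5 CPM ± 7.41 in control to 42.7 CPM ± 2.50 in knockdown (SD, n = 4 each), a fitted log2 change of -0.74 (SE 0.0897; edgeR adjusted p 2.01e-07; exact two-sided permutation p = 0.0286); without control replicate 3 it was -0.82. Its neighbours on chromosome 13 had a median of -0.42. With that shift taken out MBNL2 remained lower but by less, at -0.32 (edgeR adjusted p 0.000948).

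MBNL1 (ENSG00000152601.17, chr3:152243828-152465780, plus strand) had 102, 99.6, 88.7 and 99.5 CPM in controls 1 to 4, against 90.2, 96.5, 92.8 and 86.1 CPM in knockdown libraries 1 to 4. The groups overlapped, as control replicate 3 lay among the knockdown libraries. Its level went from 97.5 CPM ± 6.08 in control to 91.4 CPM ± 4.37 in knockdown (SD, n = 4 each), a fitted log2 change of -0.094 (SE 0.0577; edgeR adjusted p 0.0652; exact two-sided permutation p = 0.1714). That call rested on single libraries: the log2 fold change was -0.14 with an adjusted p of 0.00171 without control replicate 3, and -0.12 with 0.032 without knockdown replicate 2, both by edgeR and both past the threshold. With the shift of its neighbours (median -0.10) taken out, it was 0.0017. MBNL1 exons overlap those of MBNL1-AS1 on the opposite strand by 1033 bp, but that gene averaged 6.62 counts per library.

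The makeup of the muscleblind family shifted accordingly. The log2 ratio of MBNL1 to MBNL3 counts went from 1.596 ± 0.0415 in control to 3.67 ± 0.147 in knockdown (SD, n = 4 each), a change of 2.07 (SE 0.0765), that of MBNL2 to MBNL3 from 1.14 ± 0.0424 in control to 2.57 ± 0.143 in knockdown (SD, n = 4 each), a change of 1.43 (SE 0.0746), and that of MBNL1 to MBNL2 from 0.45 ± 0.0747 in control to 1.10 ± 0.0389 in knockdown (SD, n = 4 each), a change of 0.64 (SE 0.0421). Each of these 3 ratios was higher in 4 of 4 knockdown libraries than in any control (exact two-sided permutation p = 0.0286 for each, adjusted 0.0286). Per kilobase of exon, MBNL1 made up 45.5% ± 1.18 in control and 59.2% ± 0.662 in knockdown, MBNL2 45.9% ± 1.19 in control and 38.2% ± 0.623 in knockdown, and MBNL3 8.52% ± 0.101 in control and 2.64% ± 0.259 in knockdown (SD, n = 4 each). In control MBNL1 and MBNL2 had overlapping ranges, whereas in knockdown MBNL1 was above MBNL2 in every library. The family sum was 32 ± 2.61 CPM per kb in control and 23.1 ± 1.22 CPM per kb in knockdown.

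PTBP1 and PTBP2 were both higher in knockdown. PTBP1 (ENSG00000011304.21, chr19:797075-812327, plus strand) had 361, 351, 381 and 349.5 CPM in controls 1 to 4, against 475, 481, 460.0 and 509.5 CPM in knockdown libraries 1 to 4. Control replicate 3 was the highest control and below every knockdown library. PTBP1 rose from 361 CPM ± 14.6 in control to 481 CPM ± 20.8 in knockdown (SD, n = 4 each), a fitted log2 change of 0.42 (SE 0.0422; edgeR adjusted p 1.51e-10; exact two-sided permutation p = 0.0286). Its neighbours on chromosome 19 had a median of -0.35, opposite in sign, and the value with that shift taken out was larger, at 0.76.

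PTBP2 (ENSG00000117569.19, chr1:96721665-96823738, plus strand) had counts of 229, 229, 168 and 250 in controls 1 to 4, against 413, 452, 378 and 381 in knockdown libraries 1 to 4, which is 10.5, 10.4, 7.98 and 10.8 CPM in control and 17.6, 18.5, 19.3 and 17.6 CPM in knockdown. All knockdown libraries were above every control, and control replicate 3 was low among the controls. PTBP2 rose from 9.91 CPM ± 1.30 in control to 18.2 CPM ± 0.805 in knockdown (SD, n = 4 each), a fitted log2 change of 0.88 (SE 0.106; edgeR adjusted p 2.79e-10; exact two-sided permutation p = 0.0286); without control replicate 3 the log2 fold change was 0.78. The log2 ratio of PTBP1 to PTBP2 counts went from 5.19 ± 0.258 in control to 4.72 ± 0.115 in knockdown (SD, n = 4 each), a change of -0.47 (SE 0.141), so in counts PTBP2 rose by more than PTBP1 (exact two-sided permutation p = 0.0286, adjusted 0.0286). Without control replicate 3 that change was -0.34. The neighbours of PTBP2 had a median of 0.18, and with the shift of each gene's neighbours taken out the order turned, with PTBP2 at 0.69 and PTBP1 at 0.76.

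PTBP3, the remaining gene of the family and not among the 10, went from 193 to 175 CPM (log2 fold change -0.14, SE 0.0438), lower by edgeR with an adjusted p of 0.00191, but the groups overlapped (exact two-sided permutation p = 0.0571). With upper-quartile scaling it was at -0.082 (adjusted p of 0.0583) and with library-size scaling at -0.057 (0.191), both by edgeR and neither past the threshold. With the shift of its neighbours taken out it was higher, at 0.35. Relative to PTBP3, PTBP1 was higher in knockdown: their log2 ratio went from 0.91 ± 0.119 in control to 1.46 ± 0.08 in knockdown (SD, n = 4 each), a change of 0.56 (SE 0.0719) (exact two-sided permutation p = 0.0286, adjusted 0.0286). Per kilobase of exon PTBP1 made up 80.1% ± 1.34 in control and 85.1% ± 0.715 in knockdown of the 3 genes, and PTBP2 only 0.678% ± 0.103 in control and 0.994% ± 0.072 in knockdown (SD, n = 4 each). The family sum was 122 ± 3.06 CPM per kb in control and 153 ± 5.67 CPM per kb in knockdown.

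**Figure D3:**
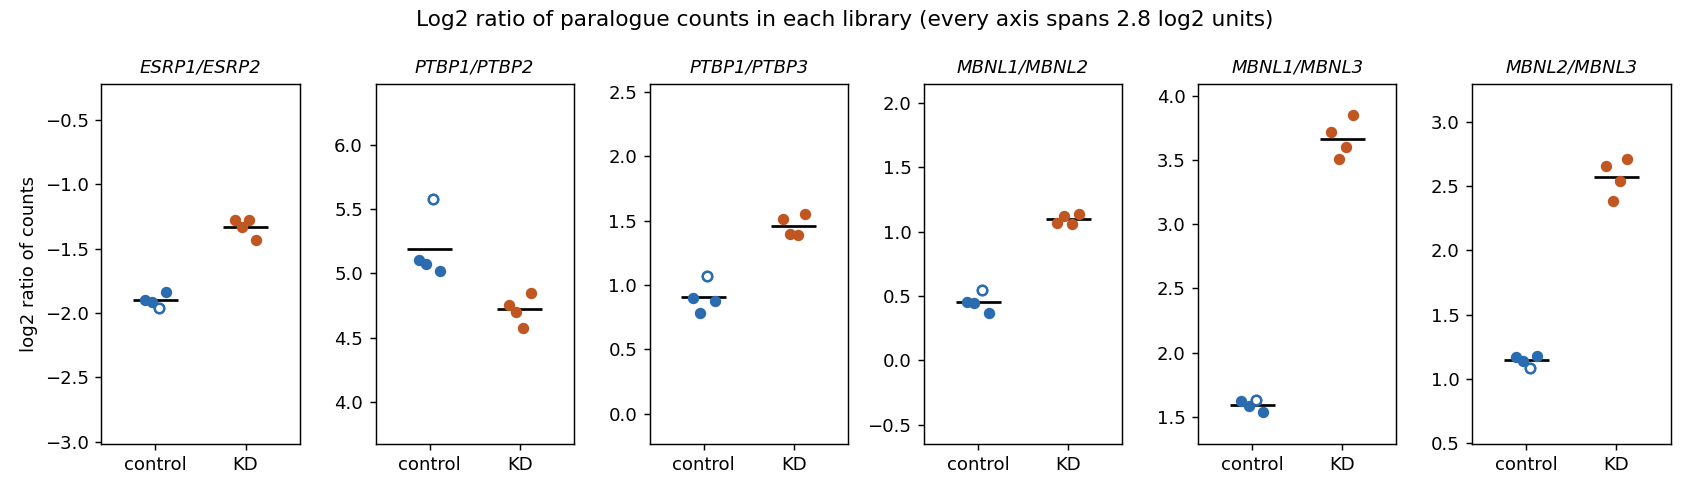
Log2 ratio of the counts of 2 paralogues in each library (y axes of equal span) for 4 control (blue, replicate 3 open) and 4 FOXA1 knockdown libraries (orange), with group means as lines. The groups are separate for all 6 pairs, the largest shift is MBNL1 over MBNL3, at 2.07, and PTBP1 over PTBP2 is the pair that fell.

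**Figure D4:**
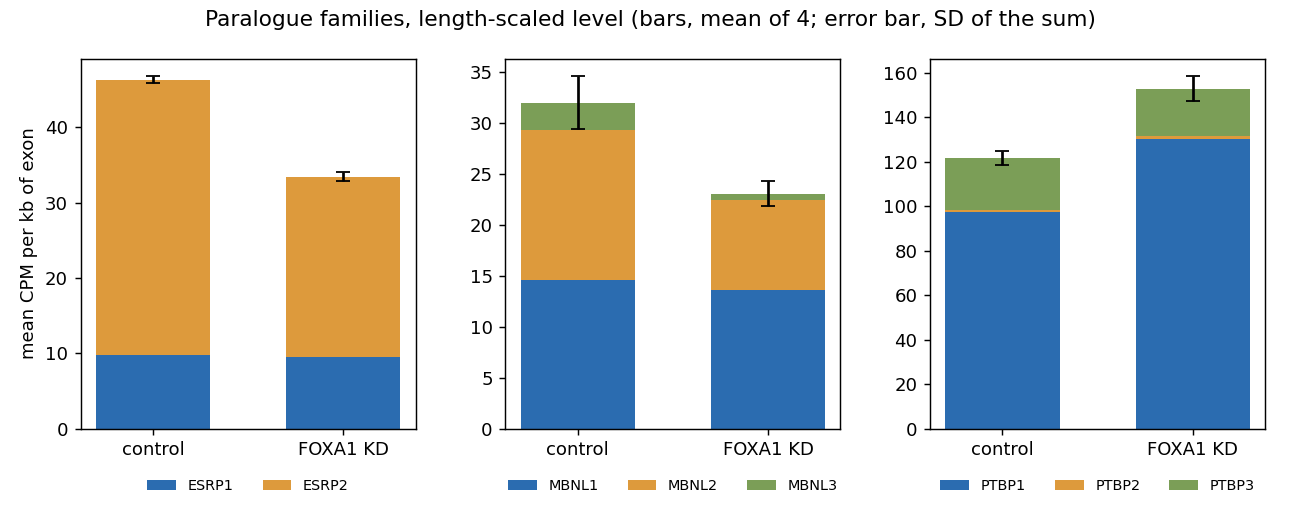
Summed length-scaled level of the ESRP, MBNL and PTBP genes (y axis, mean CPM per kb of exon, starting at 0; stacked bars, means of 4 libraries; error bars, SD of the sum). The ESRP and MBNL sums are lower and the PTBP sum is higher in knockdown, with PTBP1 and ESRP2 the main parts of their bars in both groups.

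Across the 10 genes the order of length-scaled levels changed in the middle. PTBP1 was highest, at 97.5 CPM per kb in control and 130.1 in knockdown. ESRP2 came next in control (36.6, with RBM47 at 25.2), and RBM47 came next in knockdown (35.3, with ESRP2 at 23.96); the ranges of that pair did not overlap in either group. Then followed in control MBNL2 (14.7) and MBNL1 (14.6), which overlapped, ESRP1 (9.71), RBFOX2 (8.34) and QKI (5.95). In knockdown RBFOX2 (16.1), QKI (13.8) and MBNL1 (13.6) stood above ESRP1 (9.46) and MBNL2 (8.80), with QKI and MBNL1 overlapping. MBNL3 and PTBP2 were lowest in both groups, at 2.73 and 0.824 CPM per kb in control and 0.611 and 1.52 in knockdown, and they changed places. The place of QKI depends on the length used: over its longest coding transcript of 9463 bp instead of all its exons (15814 bp) it was 9.95 in control and 23.1 in knockdown.

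Most tested genes of general splicing factors were also higher in knockdown. The list of SR proteins, many of which bind exonic enhancers and favour exon inclusion, includes genes of SR-like proteins. Of its 14 genes, 10 were higher, 2 lower and 2 did not pass, with a median log2 fold change of 0.33. TRA2B went from 182 to 268 CPM (log2 fold change 0.56, SE 0.0281) and SRSF1 from 287 to 419 CPM (log2 fold change 0.55, SE 0.0235), while SRSF11 went from 268 to 223 CPM (log2 fold change -0.27, SE 0.0929) and SRSF4 from 86.9 to 81.9 CPM (log2 fold change -0.087, SE 0.0166). The falls of SRSF4 and SRSF11 depended on the scaling: upper-quartile scaling called 11 higher and 1 lower, and library-size scaling 11 higher and 0 lower. Of 24 tested genes of hnRNP and PCBP proteins, the abundant RNA-binding proteins that often oppose SR proteins, 21 were higher, 2 lower and 1 did not pass (median 0.29). HNRNPA0 went from 115 to 259 CPM (log2 fold change 1.16, SE 0.0247) and HNRNPF from 362 to 683 CPM (log2 fold change 0.92, SE 0.0186), whereas PCBP4 went from 13.5 to 2.33 CPM (log2 fold change -2.53, SE 0.111) and HNRNPUL2 from 175 to 138 CPM (log2 fold change -0.34, SE 0.0204). These lists had 85.7% and 95.8% of tested genes past the threshold beside 77.1% of all genes, 39.4% higher and 37.7% lower. The share over all genes also covers genes with lower counts than most in these lists.

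Among 35 other regulators of tissue-dependent splicing, 20 passed the filter, of which 16 were higher, 2 lower and 2 did not pass (median 0.56, 90.0% called). Among called genes of this list averaging 50 counts or more, KHDRBS3 and SRRM3 rose most. KHDRBS3, a STAR-family relative of QKI, went from 0.898 to 9.75 CPM (log2 fold change 3.44, SE 0.142). SRRM3, a factor for neuronal microexons, went from 1.04 to 5.43 CPM (log2 fold change 2.39, SE 0.177). RBPMS2, MSI1 and RBMS3, which averaged fewer counts, rose more than SRRM3. RBPMS2 had at most 2 counts in control and 75 to 102 in knockdown libraries, and MSI1 at most 4 and 71 to 107. RBM4 went from 106 to 92.2 CPM (log2 fold change -0.20, SE 0.0436). Of the 15 not tested, 5 had no row in the table used here and the other 10 were below the filter, among them CELF2, NOVA2 and ELAVL3. All of these lists, like the 10 genes themselves, were chosen with earlier results of these data known, and the counts describe them without testing the lists.

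Genes whose exons are known to depend on ESRP proteins were divided at the level of total RNA: 9 of 19 were higher, 8 lower and 2 did not pass (median 0.072, 89.5% called). The integrin gene ITGA6 went from 0.225 to 163 CPM (log2 fold change 9.45, SE 0.297). It had only 3 to 7 counts in control libraries, so the size of its rise is imprecise. CD44, the hyaluronan receptor gene, went from 1.7 to 13.6 CPM (log2 fold change 2.99, SE 0.118). OSBPL3 went from 81.6 to 40.7 CPM (log2 fold change -1.001, SE 0.0663) and CTNND1, which encodes p120 catenin, from 406 to 243 CPM (log2 fold change -0.74, SE 0.0611). FGFR2, whose alternative immunoglobulin exon is the best known ESRP target, did not pass: it went from 57.7 to 55.6 CPM (log2 fold change -0.055, SE 0.0437), with an edgeR adjusted p of 0.276. Isoforms of these genes cannot be told apart in counts per gene.

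The transcription factors that control the epithelial state were also divided, with 6 of 14 tested genes higher, 7 lower and 1 not past the threshold (median -0.24, 92.9% called). ZEB2, SNAI2 and TWIST1, repressors of epithelial genes, had at most 1, 3 and 1 counts in any library, and ZEB1 had no row in the table used here. SNAI1, a repressor of the same family as SNAI2, was detected and rose, from 49 to 71 counts in control libraries to between 126 and 147 in knockdown libraries (log2 fold change 1.14, SE 0.134; edgeR adjusted p 8.26e-09). TWIST2 had 0 counts in every control library and 226 to 274 in knockdown libraries, at least 80.1-fold higher against a floor of 3 counts per library. TP63, a basal epithelial factor, went from 0.147 to 7.86 CPM (log2 fold change 5.68, SE 0.198). It had 2 to 4 counts in control libraries, close to that floor, so the size of its rise is imprecise. The epithelial ETS factors fell, ELF5 from 8.02 to 0.196 CPM (log2 fold change -5.35, SE 0.304) and EHF from 13.8 to 1.19 CPM (log2 fold change -3.50, SE 0.27). GRHL2, an activator of epithelial genes, went from 40.0 to 51.3 CPM (log2 fold change 0.36, SE 0.0546).

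Epithelial genes showed 9 higher, 9 lower and 3 not past the threshold among 21 tested (median -0.023, 85.7% called). OCLN, the tight junction gene for occludin, went from 57.2 to 88.9 CPM (log2 fold change 0.64, SE 0.025) and KRT18 from 2312 to 3457 CPM (log2 fold change 0.58, SE 0.0543), while RAB25 went from 153 to 2.43 CPM (log2 fold change -5.97, SE 0.0834). Of 18 mesenchymal genes, 6 were below the filter. Of the 12 tested, 7 were higher and 5 lower (median 0.64, 100% called, beside 77.1% of all tested genes). COL6A1 went from 0.538 to 148 CPM (log2 fold change 8.10, SE 0.284), and FN1, the fibronectin gene, went the other way, from 117 to 39.2 CPM (log2 fold change -1.57, SE 0.048). SPARC had 0 or 1 counts in control libraries and 18348 to 22304 in knockdown libraries, and TGFBI 226 to 256 in control and at most 2 in knockdown libraries. CDH2 had at most 1 count in control and 33 to 56 in knockdown libraries. ACTA2 had 24 to 36 counts in control and at most 2 in knockdown libraries, and S100A4 went from 154 to 59.3 CPM (log2 fold change -1.38, SE 0.0567). VIM, a defining mesenchymal marker, had at most 2 counts in control and 7 to 11 in knockdown libraries, below the filter. CDH1, of the epithelial list, was also below the filter, with 1 to 3 counts in control and 7 to 13 in knockdown libraries. Without control replicate 3 the mesenchymal counts were 7 higher and 4 lower, those of the regulators of tissue-dependent splicing 17 higher and 2 lower, and those of the other 5 lists were the same as with it.

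**Figure D5:**
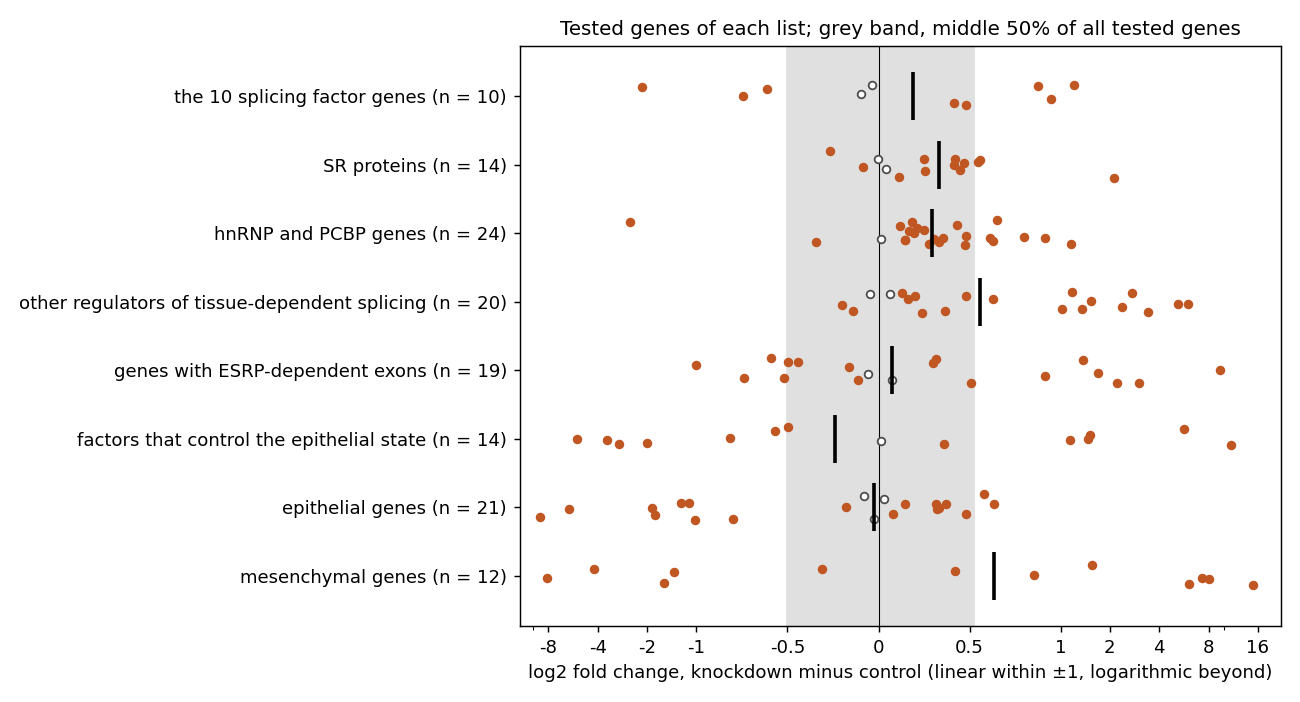
Log2 fold change, knockdown minus control, of each tested gene in the 8 lists (orange, adjusted p under 0.05; open, not past it; black line, list median; x axis linear within ±1 and logarithmic beyond; grey band, quartile range of all tested genes, from -0.50 to 0.53). SR protein and hnRNP genes lie mostly in a narrow range above 0, while the epithelial, mesenchymal and transcription factor lists spread widely to both sides.

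The genes whose log2 CPM profile over the 8 libraries, centred on each gene's mean, lay closest to MBNL3 and to QKI were picked among the 12419 other tested genes averaging 50 counts or more. For MBNL3 these were SGMS2, SEMA3C and SLC9A2, at root mean square distances of 0.0977, 0.109 and 0.112 on the log2 scale and with log2 fold changes of -2.26, -2.34 and -2.15. For QKI they were MCM10, HMGN4 and RBMXL1, at 0.0359, 0.0398 and 0.0425, with log2 fold changes of 1.23, 1.20 and 1.20. The profiles consist mainly of the difference between 2 groups of 4 libraries, so this likeness is a description of size and direction.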

How the data were processed

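RNA of 4 control and 4 FOXA1 knockdown libraries of SKBR3 cells was extracted with Trizol and read as paired ends on an Illumina NextSeq550, per the labels' protocols. The authors deposited raw counts per gene under Ensembl identifiers with a symbol column. Salmon 1.9, FastQC, DESeq2 3.16 and the build hg38 are named in the submitters' processing notes, with no role or order. All values are whole numbers, but where Salmon made them they may be rounded estimates that divide reads between similar genes, paralogues included; they were used here as counts. The annotation release and the use of strand are not given in the sources used here. The table holds 30434 genes; the lowest total of a gene is 2 counts.

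Counts were tested in R 4.3.3 with edgeR 4.0.16: filterByExpr (minimum count 10, minimum total 15), which left 16430 genes, TMM scaling, glmQLFit with robust estimation and glmQLFTest, with a prior count of 0.125 for fitted log2 fold changes. CPM are counts divided by the TMM-scaled library total. SE come from log2 CPM with 0.5 added to each count. Ratios of paralogues use the same addition and an exact two-sided permutation over 70 divisions. Length-scaled levels use exon lengths of GENCODE 29. A floor of 3 counts, between 0.123 and 0.153 CPM, stands for 0, and covers counting error only. Library totals ran from 19087878 to 23786684 counts, and the common biological coefficient of variation was 4.56%.

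On simulated counts, 90 of 95 genes given a 2-fold change and 64 of 96 given a log2 change of 0.5 were called with the right sign among 16048 genes, and 15 of 169 calls were unchanged genes. The simulation changed few genes, in balanced directions, whereas 77.1% of tested genes passed in the data. It therefore does not show how scaling and calls hold when most genes change. The 10 genes and all lists were chosen with earlier results of these data known, and values of the lists and of PTBP3 under other scalings or without control replicate 3 were added after the data were seen. Named genes are the 10, FOXA1, paralogues of members, the 2 largest called rises and falls of each list with a mean of at least 50 counts, and the 3 most alike genes for MBNL3 and QKI, with 1 gene of the epithelial list not reported here; markers and further genes named at the floor or as known targets were chosen after their values were seen. Alternatives tried were scaling by RLE, upper quartile or library size, no filter, a mean of at least 50 counts, DESeq2 1.42.0, limma 3.58.1 voom, no robust estimation, a replicate block, an adjusted p of 0.01, removal of the neighbours' shift, and leaving out each library. Figures used matplotlib 3.10.9.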

Additional observations from a re-analysis of the deposited data

Results flagged for a closer look

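Within each group of 4 libraries, the distance of the highest or lowest to its nearest neighbour was divided by the group's range and compared with the critical value of Dixon. Among 32 sets of values (10 genes and 6 paralogue ratios in both conditions) 2 exceeded it, where chance gives about 1.6, and both rest on the same counts. PTBP2 was low in control replicate 3, at 7.98 CPM against 10.4 to 10.8 CPM in the other controls, a gap ratio of 0.865. The log2 ratio of PTBP1 to PTBP2 was high in the same library, at 5.57 against 5.02 to 5.10, a gap ratio of 0.851. Without that library the log2 fold change of PTBP2 was 0.78 and the change of the ratio -0.34.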

How the results depend on the processing

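The calls of ESRP2, RBFOX2, QKI, MBNL2, MBNL3, PTBP1 and PTBP2 kept their direction and stayed past the threshold in all 18 alternatives run for each, with log2 fold changes from -0.77 to -0.53, 0.74 to 1.03, 0.99 to 1.30, -0.82 to -0.32, -2.50 to -2.07, 0.39 to 0.76 and 0.69 to 0.96. With the shift of the 50 nearest genes removed, RBM47 was at 0.068, MBNL1 at 0.0017 and ESRP1 at 0.14 (0.1357, adjusted p of 0.00976 by edgeR), and PTBP3 turned to 0.3458. Scaling by the upper quartile put ESRP1 at 0.0213 and scaling by library size at 0.0455, settings that moved the median of all genes by 0.059 and 0.084. Over its alternatives the adjusted p of ESRP1 ran from 0.00976 to 0.681 and that of MBNL1 from 0.00171 to 0.976. Leaving out each library in turn gave -0.14 to -0.07 for MBNL1 (-0.1412 to -0.0665), 8 to 9 of the 10 genes past the threshold, and 12498 to 12865 of all genes. Over all genes the alternatives gave 10279 (mean of at least 50 counts) to 15028 calls (no filter).

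Whether the replicate numbers pair the libraries is unclear. Deviations of same-numbered libraries correlated weakly, at 0.088, 0.17, -0.035 and 0.066 over 12420 genes. Libraries numbered 1, 2 and 4 each correlated best with the library of the same number, and those numbered 3 did not. With the replicate block 12453 genes and 8 of the 10 splicing factor genes were past the threshold; for paralogue ratios the block leaves the mean change as it was by construction. In each of the 10 alternatives run for each, the 6 paralogue changes kept their direction and moved by less than the larger of the SDs of the 2 groups; those of PTBP1 to PTBP2, MBNL1 to MBNL3 and MBNL2 to MBNL3 moved by more than the smaller SD when 1 library was left out. Depth was not limiting for the 10 genes, whose lowest library count was 129 (MBNL3).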
